A study of Homo sapiens with 16 samples.

Results

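The 56 genes described here carry out or supply DNA replication, and they were taken by symbol from a table of 25369 genes. They comprise 11 licensing genes (origin recognition subunits, CDC6, CDT1, its inhibitor GMNN and the MCM2 to MCM7 helicase), 8 genes of helicase activation, 9 of the polymerases, 5 of the clamp loader, 3 of the single-strand binding protein RPA, 4 of lagging strand maturation, 6 of nucleotide supply, 4 of fork protection together with the helicase MCM8, 4 of chromatin assembly and DNA methylation, and the S phase genes FAM111B and ZNF367. All 56 passed the filter on low counts (above 0.1 CPM, the count scaled to a fixed library total, in at least 2 libraries of the line) in both lines, and none was left out. TPC1 and K1 are established human papillary thyroid carcinoma lines with wild type p53. TPC1 was grown in RPMI and K1, a derivative of the GLAG-66 line, in DMEM. Line therefore cannot be told apart from medium, nor from any batch of libraries that differs between the lines. Cells of each line were kept for 24 h in 0.2% DMSO as the vehicle, in nutlin at 10 µM, in GSK2830371 at 25 µM, or in the combination of the 2 drugs at those doses, with 2 libraries per group and 16 in all. Nutlin releases p53 from its ubiquitin ligase MDM2, and GSK2830371 inhibits PPM1D, a phosphatase that p53 itself induces and that dampens p53 signalling.

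Libraries of stranded polyadenylated RNA held 30789887 to 76648552 counts in TPC1 and 28888686 to 37161241 in K1. The 8 libraries of TPC1 carry the replicate numbers 1 and 3, those of K1 the numbers 1 and 2, and 2 values given together below follow that order. The study describes its replicates in general as independent biological ones. The labels add nothing on these libraries, so p values measure the spread between them. PAX8, a thyroid transcription factor, was present at 279.8 to 451 CPM in TPC1 and 749 to 841 CPM in K1, and FOXE1 and the keratins KRT8 and KRT18 were present as well. The thyroid genes NKX2-1, TSHR and SLC5A5 were at 0.64 CPM or below in every library and TG reached at most 6.18 CPM, while the epithelial genes KRT19, EPCAM and CDH1 were at 0.834 CPM or below, so the lines kept only some markers of the thyroid epithelial cell. Of the white blood cell genes, PTPRC and CD3E were at 0.0628 CPM or below, whereas CD68, a lysosomal protein, stood at 34.2 to 71.7 CPM in TPC1 and 54.8 to 75.5 CPM in K1. The fibroblast genes COL1A1, COL1A2, DCN and LUM reached at most 5.23 CPM and the endothelial genes PECAM1, CDH5 and VWF at most 0.768 CPM. CDKN1A, the p53 target that stops the cell cycle, rose under nutlin by 5.61 on the log2 scale in TPC1 and by 3.16 in K1.

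Replication is prepared in G1, when ORC, CDC6 and CDT1 load the MCM2 to MCM7 helicase at origins (licensing), and geminin (GMNN) blocks CDT1 afterwards. In S phase the kinase CDC7 with DBF4, MCM10, CDC45 and the GINS complex turn the loaded helicase into the active one. Polymerase alpha with primase (PRIM1, PRIM2) lays primers, replication factor C loads the sliding clamp PCNA, and polymerases epsilon and delta copy the leading and lagging strands. FEN1, DNA2, RNase H2 and ligase I join the lagging strand pieces, while ribonucleotide reductase (RRM1, RRM2), TYMS, TK1, DUT and DTYMK keep up the deoxynucleotides. Many of these genes are transcribed at G1/S by E2F factors and are held down by RB family proteins when p53 raises CDKN1A.

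Because E2F sites are the best known shared element of this class, the starts of the genes were searched for the letters TTTGGCGC, TTTCGCGC, TTTCCCGC and TTTGCCGC on both strands, in the RefSeq promoter table of GRCh38.p14 (250 bases before to 50 after each start). The table holds 48 of the 56 genes, and a single start was searched for each. MCM4, MCM5, GINS4, POLD3, RPA2, RPA3, DNA2 and FAM111B are not in it and were not searched. The letters occurred in 21 of 48 (43.8%), against 3.33% of all 27305 promoters in the table and 4.98% of the 11596 of genes tested in either line. In the window from 100 bases before to 50 after the start the shares were 39.6% and 1.71%. CCAAT was in 58.3% of the 48 and 35.7% of all promoters, and the GC box GGGCGG in 70.8% and 44.6%, the latter being 66.6% among tested genes. The letters TTTGAA and TTCGAA, one form of the CHR element of G2/M genes, were in 10.4% and 16.6%, the latter being 11.5% among tested genes. These matches are letters in a window, not measured binding.

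The stretches shown are those of genes picked by hand, most of which hold the E2F letters, whereas 21 of the 48 genes searched do. MCM10, ORC1 and FEN1 hold none of the letters in the window and are not shown. Bases are in lower case with the searched letters in capitals, 5′ to 3′ on the strand of the gene. The GRCh37 coordinates were found by exact match to the genome. The whole stretch of 150 bases before the start is given for 4 genes in which it touches no annotated exon, and the site with up to 8 bases on either side for the others. CDT1, MCM6, GINS2 and ZNF367 fell under nutlin in both lines.
CDT1 (chr16:88870047-88870196, plus strand, 1 site): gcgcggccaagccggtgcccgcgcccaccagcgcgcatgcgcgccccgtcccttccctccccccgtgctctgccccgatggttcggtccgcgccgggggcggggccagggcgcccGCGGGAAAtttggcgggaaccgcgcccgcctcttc
MCM6 (chr2:136634014-136634163, minus strand, 3 sites, of which 2 overlap): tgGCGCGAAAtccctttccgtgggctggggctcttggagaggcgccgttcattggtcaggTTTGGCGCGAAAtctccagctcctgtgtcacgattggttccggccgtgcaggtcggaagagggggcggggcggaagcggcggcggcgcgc
GINS2 (chr16:85722561-85722710, minus strand, 1 site): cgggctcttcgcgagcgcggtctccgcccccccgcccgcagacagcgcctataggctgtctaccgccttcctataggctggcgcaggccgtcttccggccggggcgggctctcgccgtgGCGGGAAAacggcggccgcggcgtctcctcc
ZNF367 (chr9:99180653-99180802, minus strand, 2 sites): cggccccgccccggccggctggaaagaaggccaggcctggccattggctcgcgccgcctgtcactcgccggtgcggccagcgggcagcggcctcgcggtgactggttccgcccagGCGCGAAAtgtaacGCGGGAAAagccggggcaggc
Shorter sites follow for a replicative helicase subunit, polymerase subunits, a clamp loader subunit and UHRF1, all of which fell in both lines.
MCM7 (chr7:99699021-99699037, minus strand, site 9 bases before the start): gggcgacgTTTCGCGCc
POLA2 (chr11:65029372-65029395, plus strand, site 53 bases before the start): gctcccggTTTCGCGCatgcgtgc
POLE (chr12:133263931-133263954, minus strand, site 18 bases before the start): gtgggagcGCGCCAAAtttctccc
RFC3 (chr13:34392223-34392246, plus strand, site 55 bases before the start): tggagctcGCGGGAAAacttgtct
UHRF1 (chr19:4909491-4909512, plus strand, site 14 bases before the start): gagttttcGCGGGAAAaaaatc
LIG1 and TYMS carried the same letters although LIG1 was not called in either line and TYMS changed least among the nucleotide genes.
LIG1 (chr19:48673700-48673723, minus strand, site 114 bases before the start): tcacccctTTTCCCGCcctcctcc
TYMS (chr18:657606-657629, plus strand, site 39 bases before the start): ggacggccGCGGGAAAaggcgcgc
RRM2, one of the largest falls, held none of the E2F letters in this window. The 150 bases before this start lie in annotated exon of RRM2, and other starts of the gene were not searched. The CCAAT box of RRM2 nearest the start searched is shown instead.
RRM2 (chr2:10262792-10262812, plus strand, CCAAT 66 bases before the start): caccaaagCCAATgggaaggg

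Nutlin lowered nearly all of these genes in both lines. A gene is called when edgeR's quasi-likelihood test, fitted jointly on the 4 treatments of a line, gives an adjusted p (Benjamini-Hochberg over all genes tested) under 0.05 with a fold above 1.5, and log2 values are edgeR estimates ± SE with 2 libraries against 2. In TPC1, 54 of 56 were called lower, where 18.0% of the 15273 genes tested were called lower and 17.5% higher. In K1, 50 of 56 were called lower, against 5.43% of 15900 genes lower and 3.84% higher. No member was called higher in either line, and none had an unadjusted p under 0.05 in that direction or was called higher by DESeq2. The libraries did not overlap for any of the 56 genes in either line, all nutlin values being below all DMSO values. The share of all genes tested that were separated in this way is not given here, and 2 libraries against 2 can separate by chance. The median log2 change was -2.46 in TPC1, which leaves 18.2% of the DMSO level, and -1.47 in K1, which leaves 36.1%, while the median over all genes tested lay within 0.03 of 0. In these bulk libraries fewer cells in S phase and less RNA of these genes per cell cannot be told apart.

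Summed over the 56 genes, the TPC1 libraries held 6262 and 6317 CPM in DMSO, 1364 and 1349 CPM in nutlin, 5239 and 5351 CPM in GSK2830371, and 1189.8 and 1174 CPM in the combination. The K1 sums were 4459 and 4569.6 CPM, 1618 and 1728 CPM, 4002 and 4135 CPM, and 1496 and 1534 CPM. The replication genes thus took a larger part of the RNA of untreated TPC1 cells than of K1 cells, and a smaller part once both lines had received nutlin. The heat map of changes by library shows the fall of single genes, each set against the DMSO mean of its own line.

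**Figure D1:**
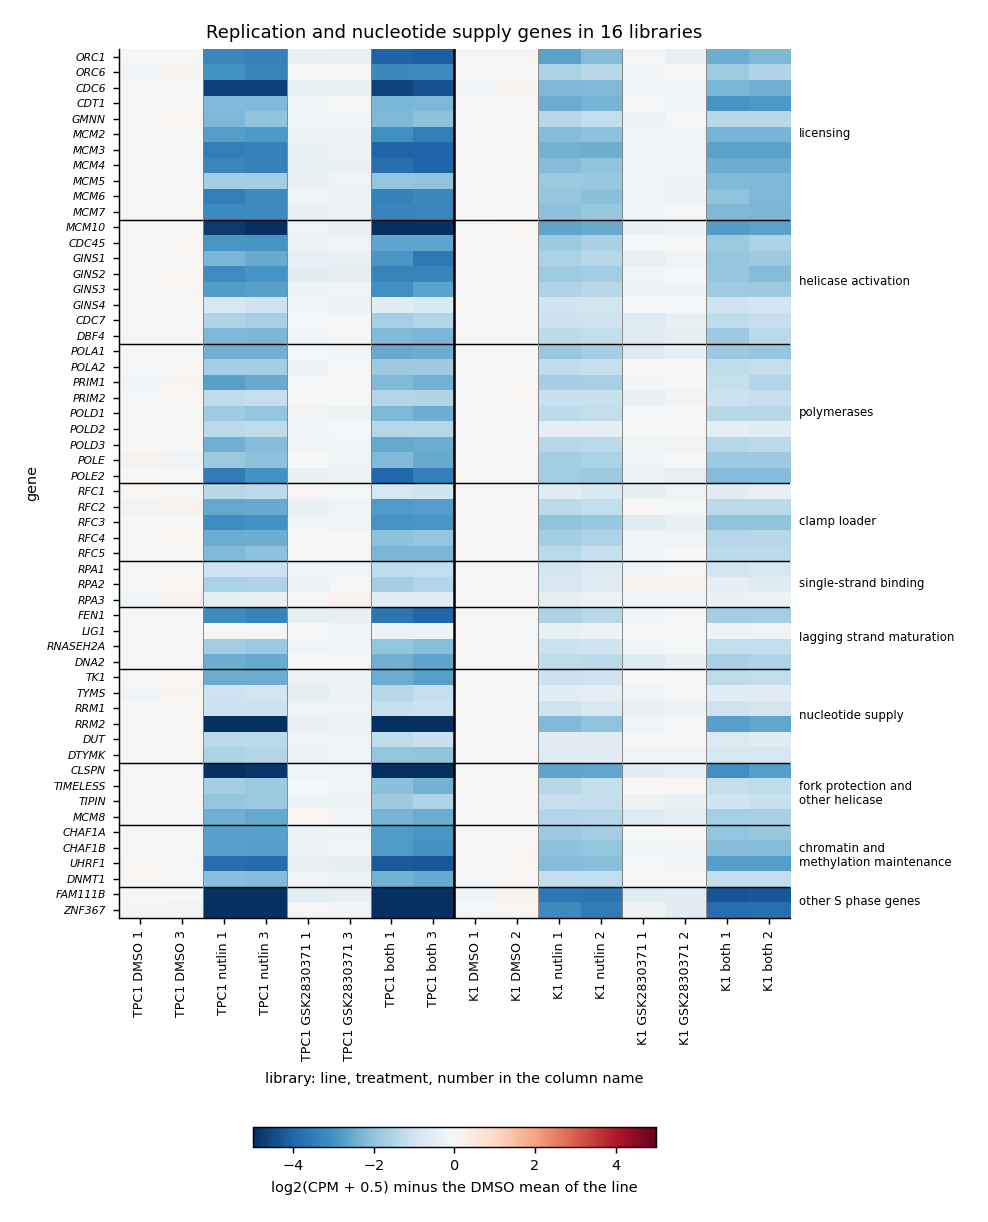
Colour is log2(CPM + 0.5) of each library minus the DMSO mean of its line, for the 56 genes (rows, grouped by role) in the 16 libraries (columns, by line and treatment). The nutlin and combination columns are dark across nearly all rows, most in TPC1, whereas the GSK2830371 columns stay near 0, and LIG1 and RPA3 stay pale throughout.

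All 11 licensing genes fell in both lines, with a median log2 change of -3.29 in TPC1 and -2.08 in K1. CDC6 (chromosome 17, bases 38444131 to 38460909, plus strand, GRCh37), the ATPase that brings the helicase to ORC, had the largest fall in TPC1. CDC6 in TPC1 measured 84.7 and 88.1 CPM in DMSO, 2.96 and 2.95 CPM in nutlin, 67.2 and 69.2 CPM in GSK2830371 and 2.98 and 3.72 CPM in the combination. CDC6 in K1 reached 83.4 and 99.5 CPM in DMSO, 18.9 and 19.5 CPM in nutlin, 81.8 and 78.2 CPM in GSK2830371 and 18.1 and 16.8 CPM in the combination. CDC6 changed by -4.84 ± 0.12 (TPC1, adjusted p = 7.28e-09) and -2.24 ± 0.09 (K1, adjusted p = 5.52e-10), and its 2 nutlin libraries in TPC1 were nearly equal, near 3 CPM. ORC1 (chromosome 1, bases 52838501 to 52870095, minus strand), the largest subunit of the origin recognition complex, led the licensing genes in K1. TPC1 held 47.4 and 47.1 CPM in DMSO, 4.42 and 4.07 CPM in nutlin, 36.4 and 37.1 CPM in GSK2830371 and 2.39 and 2.24 CPM in the combination of ORC1. ORC1 in K1 stood at 22.9 and 25.4 CPM in DMSO, 3.36 and 4.97 CPM in nutlin, 23.3 and 18.7 CPM in GSK2830371 and 3.86 and 4.68 CPM in the combination. Its nutlin change was -3.45 ± 0.09 (TPC1, adjusted p = 7.72e-09) and -2.51 ± 0.16 (K1, adjusted p = 5.20e-08), and in K1 the second nutlin library was the higher of its pair while the GSK2830371 libraries differed by more than the DMSO ones.

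The 6 subunits of the MCM2 to MCM7 ring fell together, to a median log2 change of -3.23 in TPC1 and -2.06 in K1, with MCM5 apart in TPC1. For MCM5, the TPC1 values were 182 and 194 CPM in DMSO, 56 and 55.7 CPM in nutlin, 146 and 163 CPM in GSK2830371 and 47.4 and 45.6 CPM in the combination. MCM5 in K1 came to 153 and 163 CPM in DMSO, 43.3 and 42.3 CPM in nutlin, 138 and 131 CPM in GSK2830371 and 33.5 and 33.3 CPM in the combination. MCM5 changed by -1.72 ± 0.08 (TPC1, adjusted p = 3.01e-07) and -1.87 ± 0.06 (K1, adjusted p = 1.01e-10), which made it the smallest change of any licensing gene in TPC1, while the other 5 subunits lay between -3.43 (MCM3) and -2.80 (MCM2) there. Per kilobase of transcript, the highest subunit exceeded the lowest by 4.23 to 4.59 times in the TPC1 DMSO libraries and by 3.99 to 5.24 times under nutlin, so the subunits kept unequal RNA levels. GMNN, which blocks CDT1 after origins have fired, fell least of the licensing genes in K1. GMNN in TPC1 measured 42.9 and 49.5 CPM in DMSO, 9.42 and 11.2 CPM in nutlin, 39.4 and 41.4 CPM in GSK2830371 and 9.22 and 10.8 CPM in the combination. GMNN in K1 reached 33.4 and 32.6 CPM in DMSO, 12.2 and 13.9 CPM in nutlin, 27.2 and 30.6 CPM in GSK2830371 and 12.4 and 12.3 CPM in the combination. Its change was -2.12 ± 0.12 (TPC1, adjusted p = 9.34e-07) and -1.32 ± 0.09 (K1, adjusted p = 8.16e-08). CDT1, the loading factor itself, is given beside its inhibitor, chosen after its values were seen. TPC1 held 84.4 and 90.6 CPM in DMSO, 18.6 and 18.6 CPM in nutlin, 75.6 and 88.5 CPM in GSK2830371 and 17.5 and 18.1 CPM in the combination of CDT1. CDT1 in K1 stood at 48.1 and 52.2 CPM in DMSO, 8.58 and 9.63 CPM in nutlin, 48 and 43.1 CPM in GSK2830371 and 6.0 and 6.48 CPM in the combination. CDT1 changed by -2.20 ± 0.10 (TPC1, adjusted p = 1.96e-07) and -2.45 ± 0.09 (K1, adjusted p = 3.91e-10), and it was one of 4 members with the larger fall in K1. Per kilobase, GMNN RNA stood at 1.46 and 1.32 times CDT1 RNA in the K1 DMSO libraries, at 3.0 and 3.04 times under nutlin and at 4.36 and 3.99 times with both drugs. In TPC1 the same ratio was 1.07 and 1.15 in DMSO, 1.07 and 1.27 under nutlin, and 1.11 and 1.25 with both. In K1 the GMNN to CDT1 ratio thus separated DMSO, nutlin and the combination without overlap, and in TPC1 it did not. The K1 ratios under GSK2830371 alone spanned those of DMSO. CDT1 was picked with its values known, 2 libraries a group can separate by chance, and the ratio was not tested. The share of other gene pairs so separated is not given here, so no difference between the lines is concluded from this ratio.

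Among the 8 genes of helicase activation all fell in both lines, with medians of -2.65 in TPC1 and -1.49 in K1. MCM10 (chromosome 10, bases 13203558 to 13253110, plus strand), which helps the helicase to unwind, fell most. For MCM10, the TPC1 values were 69 and 65.7 CPM in DMSO, 1.95 and 1.46 CPM in nutlin, 57.3 and 52.2 CPM in GSK2830371 and 1.52 and 1.08 CPM in the combination. MCM10 in K1 came to 51 and 57.4 CPM in DMSO, 8.27 and 9.05 CPM in nutlin, 42 and 45.5 CPM in GSK2830371 and 7.44 and 8.0 CPM in the combination. MCM10 changed by -5.32 ± 0.15 (TPC1, adjusted p = 1.19e-08) and -2.63 ± 0.09 (K1, adjusted p = 2.06e-10), a reduction of 39.99-fold and 6.2-fold. CDC45, a core part of the active helicase, lay near the middle of the group. CDC45 in TPC1 measured 38.6 and 44.5 CPM in DMSO, 5.1 and 4.88 CPM in nutlin, 33.8 and 37.3 CPM in GSK2830371 and 6.16 and 6.27 CPM in the combination. CDC45 in K1 reached 51.3 and 52.6 CPM in DMSO, 13.8 and 16.6 CPM in nutlin, 49.6 and 53.2 CPM in GSK2830371 and 14 and 17 CPM in the combination. Its nutlin change was -3.03 ± 0.11 (TPC1, adjusted p = 4.01e-08) and -1.76 ± 0.10 (K1, adjusted p = 1.80e-08), and in TPC1 both combination libraries were above both nutlin libraries. The 4 GINS subunits form one complex, yet they were unequal: GINS1, GINS2 and GINS3 changed by -2.42, -3.13 and -2.89 in TPC1, and GINS4 by -0.92 ± 0.10. TPC1 held 45.3 and 43.8 CPM in DMSO, 24.9 and 21.4 CPM in nutlin, 38 and 36 CPM in GSK2830371 and 29.9 and 26.1 CPM in the combination of GINS4. GINS4 in K1 stood at 43.6 and 40.2 CPM in DMSO, 20.8 and 22.1 CPM in nutlin, 39.2 and 40.7 CPM in GSK2830371 and 20.3 and 21.3 CPM in the combination. In K1 GINS4 changed by -0.95 ± 0.07, about as much as in TPC1. The kinase CDC7 and its activator DBF4 changed by -1.63 in TPC1 and -1.06 in K1, and by -2.31 in TPC1 and -1.29 in K1.

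All 9 polymerase genes were called lower in TPC1 and 8 in K1, with medians of -1.93 and -1.38. POLE2 (chromosome 14, bases 50110273 to 50155140, minus strand), the second subunit of the leading strand polymerase, fell most in both lines. For POLE2, the TPC1 values were 14.8 and 15.6 CPM in DMSO, 0.877 and 1.44 CPM in nutlin, 11.6 and 12.7 CPM in GSK2830371 and 0.542 and 0.986 CPM in the combination. POLE2 in K1 came to 7.9 and 7.35 CPM in DMSO, 1.9 and 1.8 CPM in nutlin, 6.24 and 5.69 CPM in GSK2830371 and 1.32 and 1.3 CPM in the combination. POLE2 changed by -3.60 ± 0.23 (TPC1, adjusted p = 1.56e-06) and -2.03 ± 0.14 (K1, adjusted p = 1.42e-07), and its catalytic partner POLE by -1.93 in TPC1 and -1.64 in K1. PRIM1, the primase that makes the RNA primer, and PRIM2, the subunit that holds it, fell to different degrees. PRIM1 in TPC1 measured 24.2 and 28.7 CPM in DMSO, 3.54 and 4.15 CPM in nutlin, 25.1 and 28.6 CPM in GSK2830371 and 5.37 and 4.71 CPM in the combination. PRIM1 in K1 reached 11.6 and 13.4 CPM in DMSO, 3.5 and 3.59 CPM in nutlin, 11.2 and 12.8 CPM in GSK2830371 and 5.34 and 4.25 CPM in the combination. PRIM1 changed by -2.74 ± 0.14 (TPC1, adjusted p = 3.46e-07) and -1.81 ± 0.14 (K1, adjusted p = 3.61e-07). TPC1 held 19.8 and 22.9 CPM in DMSO, 8.51 and 9.32 CPM in nutlin, 21.1 and 21.6 CPM in GSK2830371 and 7.35 and 7.11 CPM in the combination of PRIM2. PRIM2 in K1 stood at 14.2 and 15.8 CPM in DMSO, 6.65 and 6.73 CPM in nutlin, 11.6 and 13.4 CPM in GSK2830371 and 6.91 and 6.45 CPM in the combination. PRIM2, by contrast, changed by -1.23 ± 0.10 (TPC1, adjusted p = 8.81e-06) and -1.15 ± 0.11 (K1, adjusted p = 2.34e-06), so that the smaller fall belonged to PRIM2 in both lines.

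Within polymerase delta, POLD2 was the polymerase gene that changed least in K1. For POLD2, the TPC1 values were 190.5 and 223 CPM in DMSO, 81.4 and 84.3 CPM in nutlin, 179 and 196 CPM in GSK2830371 and 76.6 and 76.3 CPM in the combination. POLD2 in K1 came to 127 and 132 CPM in DMSO, 93.2 and 96 CPM in nutlin, 127 and 130.1 CPM in GSK2830371 and 91.6 and 85.4 CPM in the combination. POLD2 changed by -1.29 ± 0.09 (TPC1, adjusted p = 4.07e-06) and -0.44 ± 0.06 (K1, adjusted p = 5.11e-05), and the K1 change was under 1.5-fold and is not a call. The catalytic subunit POLD1 changed by -1.86 in TPC1 and -1.28 in K1, and POLD3 by -2.28 in TPC1 and -1.38 in K1. Polymerase alpha gave -2.43 in TPC1 and -1.82 in K1 for POLA1 and -1.70 in TPC1 and -1.21 in K1 for POLA2.

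The 5 clamp loader genes fell in both lines, with medians of -2.50 in TPC1 and -1.29 in K1. RFC3 (chromosome 13, bases 34392206 to 34540695, plus strand), a small subunit, fell most. RFC3 in TPC1 measured 44.9 and 42.6 CPM in DMSO, 4.71 and 4.98 CPM in nutlin, 39.3 and 37.7 CPM in GSK2830371 and 5.26 and 5.39 CPM in the combination. RFC3 in K1 reached 35.7 and 36.4 CPM in DMSO, 8.65 and 9.38 CPM in nutlin, 23.7 and 28.3 CPM in GSK2830371 and 8.54 and 8.53 CPM in the combination. RFC3 changed by -3.14 ± 0.09 (TPC1, adjusted p = 1.01e-08) and -1.98 ± 0.09 (K1, adjusted p = 3.76e-09). RFC1, the large subunit that gives the complex its replication role, fell least. TPC1 held 97.6 and 86.4 CPM in DMSO, 34.4 and 36.3 CPM in nutlin, 96.5 and 86.8 CPM in GSK2830371 and 49.5 and 45.8 CPM in the combination of RFC1. RFC1 in K1 stood at 77 and 72.3 CPM in DMSO, 50.4 and 43.5 CPM in nutlin, 54.3 and 63.5 CPM in GSK2830371 and 50.5 and 55.4 CPM in the combination. RFC1 changed by -1.35 ± 0.09 (TPC1, adjusted p = 2.63e-06) and -0.66 ± 0.08 (K1, adjusted p = 4.07e-05). Its K1 call was lost without the second nutlin library of K1, at -0.57, and with the GC and length correction, at -0.58. RFC4, another small subunit, is shown for its behaviour in the combination. For RFC4, the TPC1 values were 44.3 and 51.3 CPM in DMSO, 8.22 and 8.37 CPM in nutlin, 44.4 and 47.8 CPM in GSK2830371 and 11.3 and 12 CPM in the combination. RFC4 in K1 came to 42.8 and 42.3 CPM in DMSO, 12.7 and 14.3 CPM in nutlin, 38.1 and 37.6 CPM in GSK2830371 and 15.5 and 16 CPM in the combination. RFC4 changed by -2.50 ± 0.10 (TPC1, adjusted p = 1.03e-07) and -1.64 ± 0.08 (K1, adjusted p = 2.80e-09), and both combination libraries were above both nutlin libraries in each line. RFC2 and RFC5 changed by -2.57 in TPC1 and -1.29 in K1, and by -2.15 in TPC1 and -1.25 in K1.

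RPA, the heterotrimer that coats single-stranded DNA, had the median nearest to 0 of any role in TPC1, at -1.01, and a median of -0.74 in K1, and 2 of its 3 genes were called in each line. RPA1 in TPC1 measured 208 and 208 CPM in DMSO, 102 and 100.3 CPM in nutlin, 181 and 182 CPM in GSK2830371 and 85.5 and 88.6 CPM in the combination. RPA1 in K1 reached 114 and 109 CPM in DMSO, 59.4 and 67.2 CPM in nutlin, 98.9 and 108 CPM in GSK2830371 and 57.2 and 63.5 CPM in the combination. RPA1, the largest subunit, changed by -1.01 ± 0.07 (TPC1, adjusted p = 2.56e-06) and -0.80 ± 0.07 (K1, adjusted p = 2.31e-06). TPC1 held 55.9 and 64.3 CPM in DMSO, 19.6 and 20.03 CPM in nutlin, 48.6 and 55.7 CPM in GSK2830371 and 18.1 and 21.2 CPM in the combination of RPA2. RPA2 in K1 stood at 35.3 and 37.1 CPM in DMSO, 20.2 and 22.7 CPM in nutlin, 40.9 and 41.1 CPM in GSK2830371 and 25.7 and 23 CPM in the combination. RPA2, a target of checkpoint kinases, changed by -1.57 ± 0.12 (TPC1, adjusted p = 4.54e-06) and -0.74 ± 0.08 (K1, adjusted p = 1.31e-05), and its K1 GSK2830371 libraries were above its DMSO libraries. For RPA3, the TPC1 values were 15.9 and 21.5 CPM in DMSO, 12.9 and 14.4 CPM in nutlin, 18.6 and 21.5 CPM in GSK2830371 and 12.3 and 12.6 CPM in the combination. RPA3 in K1 came to 19 and 19 CPM in DMSO, 13.5 and 15.4 CPM in nutlin, 16.7 and 17 CPM in GSK2830371 and 14.8 and 15.9 CPM in the combination. RPA3, the smallest subunit, gave -0.43 ± 0.15 (TPC1, adjusted p = 0.033) and -0.38 ± 0.09 (K1, adjusted p = 0.00375), under 1.5-fold in both lines and not called, with a wide gap between the 2 DMSO libraries of TPC1. Without the first of them the TPC1 value was -0.63 and passed both thresholds.

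In lagging strand maturation 3 of 4 genes were called lower in each line, with medians of -2.17 and -1.20. FEN1 (chromosome 11, bases 61560383 to 61564710, plus strand), the flap endonuclease, fell most. FEN1 in TPC1 measured 147 and 153 CPM in DMSO, 16.5 and 14.5 CPM in nutlin, 107 and 116 CPM in GSK2830371 and 11.4 and 8.75 CPM in the combination. FEN1 in K1 reached 173 and 176 CPM in DMSO, 59.8 and 67.2 CPM in nutlin, 159 and 169 CPM in GSK2830371 and 52.7 and 53.6 CPM in the combination. FEN1 changed by -3.25 ± 0.13 (TPC1, adjusted p = 6.74e-08) and -1.44 ± 0.06 (K1, adjusted p = 1.97e-09). LIG1 (chromosome 19, bases 48618702 to 48673860, minus strand), DNA ligase I, which seals the finished pieces, was the gene that changed least of all 56. TPC1 held 79.98 and 80.4 CPM in DMSO, 77.2 and 75.8 CPM in nutlin, 75.7 and 73.5 CPM in GSK2830371 and 67.2 and 67.4 CPM in the combination of LIG1. LIG1 in K1 stood at 74.5 and 69.9 CPM in DMSO, 56 and 61.1 CPM in nutlin, 70.8 and 76 CPM in GSK2830371 and 60.1 and 63.8 CPM in the combination. LIG1 gave -0.04 ± 0.07 (TPC1, adjusted p = 0.687) and -0.29 ± 0.07 (K1, adjusted p = 0.00487), and although its nutlin libraries lay below its DMSO libraries in both lines, neither change reached 1.5-fold. DNA2 and RNASEH2A changed by -2.55 in TPC1 and -1.37 in K1, and by -1.80 in TPC1 and -1.02 in K1.

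The nucleotide supply genes changed unequally, with medians of -1.42 in TPC1 and -0.72 in K1 and with 6 of 6 genes called in TPC1 but 3 of 6 in K1. RRM2 (chromosome 2, bases 10260825 to 10351851, plus strand), the S phase subunit of ribonucleotide reductase, fell most. For RRM2, the TPC1 values were 400.1 and 423 CPM in DMSO, 12.6 and 11.5 CPM in nutlin, 317 and 343 CPM in GSK2830371 and 6.45 and 7.11 CPM in the combination. RRM2 in K1 came to 257 and 267 CPM in DMSO, 55.6 and 65.2 CPM in nutlin, 229 and 249 CPM in GSK2830371 and 39.6 and 43.3 CPM in the combination. RRM2 changed by -5.06 ± 0.10 (TPC1, adjusted p = 6.82e-09) and -2.10 ± 0.08 (K1, adjusted p = 3.91e-10), which left 2.99% of the DMSO level in TPC1 and 23.3% in K1. TYMS (chromosome 18, bases 657653 to 673578, plus strand), thymidylate synthase, lay at the other end. TYMS in TPC1 measured 249.6 and 295 CPM in DMSO, 130.5 and 143 CPM in nutlin, 196 and 226 CPM in GSK2830371 and 103 and 121 CPM in the combination. TYMS in K1 reached 103 and 98.1 CPM in DMSO, 68 and 71.2 CPM in nutlin, 88.6 and 96.7 CPM in GSK2830371 and 68.4 and 67.6 CPM in the combination. TYMS changed by -0.96 ± 0.12 (TPC1, adjusted p = 1.50e-04) and -0.52 ± 0.06 (K1, adjusted p = 2.05e-05), under 1.5-fold in K1 and not a call there. RRM1, the large reductase subunit, changed by -1.04 in TPC1 and -0.87 in K1, called in both lines, and thymidine kinase TK1 by -2.49 in TPC1 and -1.04 in K1. DUT, which removes dUTP, and the thymidylate kinase DTYMK gave -1.31 in TPC1 and -0.53 in K1, and -1.52 in TPC1 and -0.57 in K1, with neither called in K1, although DTYMK passed there without the second DMSO library (-0.60) or the second nutlin library (-0.66).

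RRM2B, the reductase subunit that p53 induces, is no member but forms the same enzyme with RRM1, so its values bear on the fall of RRM2. TPC1 held 51.7 and 44.1 CPM in DMSO, 260.0 and 267 CPM in nutlin, 59.1 and 54.9 CPM in GSK2830371 and 411 and 426 CPM in the combination of RRM2B. RRM2B in K1 stood at 75.9 and 72.7 CPM in DMSO, 202 and 185 CPM in nutlin, 58.3 and 71 CPM in GSK2830371 and 244 and 266 CPM in the combination. RRM2B rose under nutlin by 2.50 ± 0.09 in TPC1 and by 1.39 ± 0.08 in K1, the direction opposite to RRM2. Per kilobase, RRM2 RNA exceeded RRM2B RNA by 12.7 ± 1.93 times (SD, n = 2) in TPC1 DMSO and by 5.17 ± 0.295 times in K1 DMSO. Under nutlin RRM2B exceeded RRM2 by 14.9 ± 1.24 times in TPC1 and by 2.21 ± 0.382 times in K1. With both drugs this ratio was 42.2 ± 1.78 and 4.20 ± 0.00923. The order of the subunits was thus inverted in every library that had received nutlin. Whether the protein followed was not measured here.

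All fork protection genes and MCM8 fell in both lines, with medians of -2.25 and -1.38. CLSPN (chromosome 1, bases 36185819 to 36235579, minus strand), which relays the checkpoint signal at stalled forks, fell most. For CLSPN, the TPC1 values were 82.1 and 72.4 CPM in DMSO, 1.92 and 2.15 CPM in nutlin, 69.1 and 68.1 CPM in GSK2830371 and 1.82 and 1.16 CPM in the combination. CLSPN in K1 came to 54.6 and 60.7 CPM in DMSO, 8.97 and 9.14 CPM in nutlin, 39.1 and 44.2 CPM in GSK2830371 and 6.5 and 8.07 CPM in the combination. CLSPN changed by -5.19 ± 0.16 (TPC1, adjusted p = 1.53e-08) and -2.66 ± 0.10 (K1, adjusted p = 4.25e-10). TIMELESS and TIPIN, which form one complex at the fork, fell less. TIMELESS in TPC1 measured 112 and 107 CPM in DMSO, 32.9 and 29.6 CPM in nutlin, 106 and 98.4 CPM in GSK2830371 and 25.4 and 20.6 CPM in the combination. TIMELESS in K1 reached 74.5 and 69.9 CPM in DMSO, 27.1 and 30.9 CPM in nutlin, 72.4 and 74.7 CPM in GSK2830371 and 31.1 and 29.97 CPM in the combination. TIMELESS changed by -1.78 ± 0.11 (TPC1, adjusted p = 1.08e-06) and -1.30 ± 0.07 (K1, adjusted p = 2.31e-08). TPC1 held 18.4 and 20.9 CPM in DMSO, 4.71 and 5.07 CPM in nutlin, 16.3 and 16.6 CPM in GSK2830371 and 5.29 and 6.33 CPM in the combination of TIPIN. TIPIN in K1 stood at 14.7 and 16.5 CPM in DMSO, 6.78 and 6.49 CPM in nutlin, 13 and 12.1 CPM in GSK2830371 and 7.63 and 7.01 CPM in the combination. TIPIN changed by -1.97 ± 0.12 (TPC1, adjusted p = 1.43e-06) and -1.22 ± 0.10 (K1, adjusted p = 8.61e-07), and MCM8 by -2.53 in TPC1 and -1.46 in K1.

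Of the chromatin genes all 4 fell in both lines, with medians of -2.75 and -1.94. UHRF1 (chromosome 19, bases 4903092 to 4962165, plus strand), which reads half-methylated DNA behind the fork, fell most. UHRF1 in TPC1 measured 274 and 241 CPM in DMSO, 18 and 17.5 CPM in nutlin, 191 and 186 CPM in GSK2830371 and 13.6 and 12.7 CPM in the combination. UHRF1 in K1 reached 170.2 and 198 CPM in DMSO, 40.5 and 42 CPM in nutlin, 176 and 168 CPM in GSK2830371 and 27 and 26.5 CPM in the combination. UHRF1 changed by -3.83 ± 0.09 (TPC1, adjusted p = 7.28e-09) and -2.15 ± 0.07 (K1, adjusted p = 2.06e-10), and the first K1 DMSO library was the lower of its pair, next to the GSK2830371 libraries. DNMT1, the methyltransferase that UHRF1 recruits, changed least of the group. For DNMT1, the TPC1 values were 376 and 332 CPM in DMSO, 81.7 and 77.3 CPM in nutlin, 313 and 297 CPM in GSK2830371 and 67.7 and 60.4 CPM in the combination. DNMT1 in K1 came to 242 and 260.1 CPM in DMSO, 108 and 108 CPM in nutlin, 249 and 255 CPM in GSK2830371 and 105 and 106 CPM in the combination. DNMT1 changed by -2.12 ± 0.09 (TPC1, adjusted p = 1.17e-07) and -1.20 ± 0.05 (K1, adjusted p = 1.90e-09). The chromatin assembly subunits CHAF1A and CHAF1B changed by -2.74 in TPC1 and -1.80 in K1, and by -2.76 in TPC1 and -2.07 in K1.

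The largest falls of all 56 belonged to FAM111B (chromosome 11, bases 58874658 to 58894885, plus strand), a protease gene expressed in S phase, and ZNF367 (chromosome 9, bases 99148223 to 99180652, minus strand), a zinc finger gene. TPC1 held 36.9 and 35.7 CPM in DMSO, 0.227 and 0.292 CPM in nutlin, 24.8 and 28.3 CPM in GSK2830371 and 0.163 and 0.111 CPM in the combination of FAM111B. FAM111B in K1 stood at 30.4 and 37.9 CPM in DMSO, 2.32 and 2.16 CPM in nutlin, 22.2 and 23 CPM in GSK2830371 and 1.22 and 1.3 CPM in the combination. FAM111B changed by -7.03 ± 0.16 (TPC1, adjusted p = 6.82e-09) and -3.92 ± 0.13 (K1, adjusted p = 1.82e-10), and its TPC1 libraries with nutlin held only 6 to 19 counts, so the exact size of that fold is uncertain. ZNF367 in TPC1 measured 48 and 39.97 CPM in DMSO, 0.844 and 0.829 CPM in nutlin, 40.8 and 40.2 CPM in GSK2830371 and 0.732 and 0.414 CPM in the combination. ZNF367 in K1 reached 15.9 and 18.7 CPM in DMSO, 1.45 and 1.07 CPM in nutlin, 14.2 and 11.7 CPM in GSK2830371 and 0.753 and 0.807 CPM in the combination. ZNF367 changed by -5.68 ± 0.17 (TPC1, adjusted p = 1.61e-08) and -3.78 ± 0.17 (K1, adjusted p = 1.97e-09), and its TPC1 libraries with nutlin held 26 to 54 counts.

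**Figure D2:**
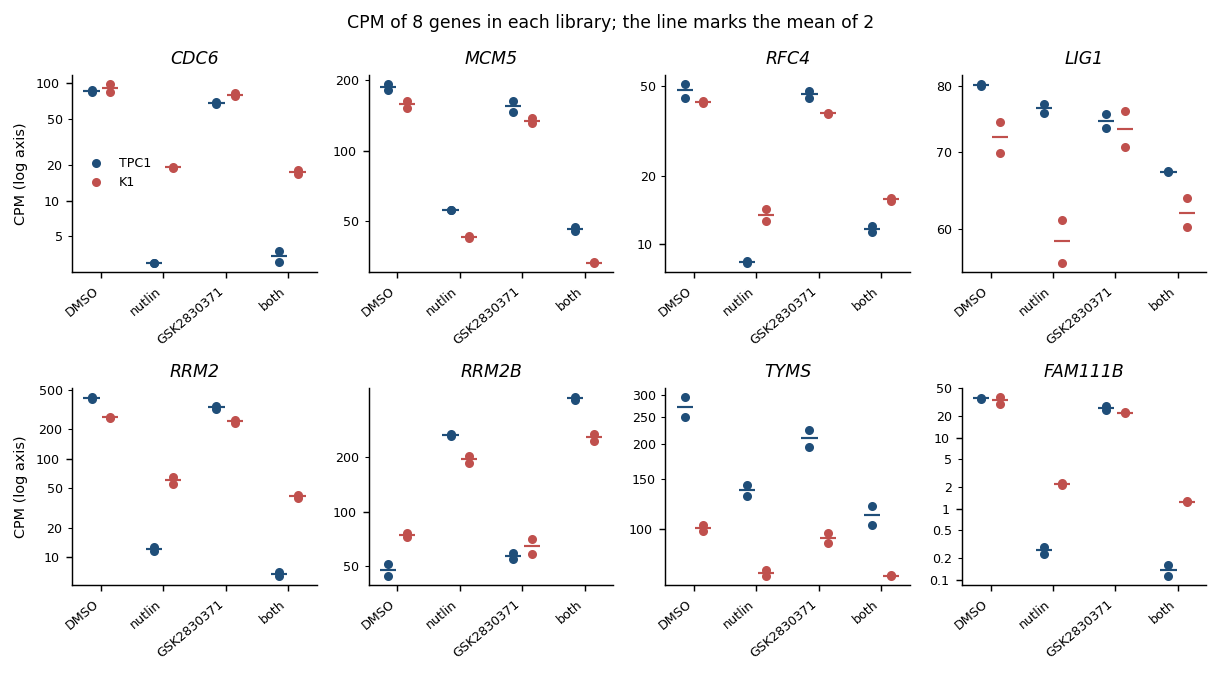
CPM in every library (log axis) for CDC6, MCM5, RFC4, LIG1, RRM2, RRM2B, TYMS and FAM111B by treatment, with TPC1 and K1 in separate colours, each point being 1 library and each short line the mean of 2. RRM2 and CDC6 fall further in TPC1 than in K1, RRM2B rises in both, and the LIG1 points stay between 56 and 80.4 CPM.

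Genes with large falls in one line mostly had large falls in the other. Over the 56 genes the nutlin changes in TPC1 and K1 had a Spearman correlation of 0.888 and a Pearson correlation of 0.895, given as a description, since all genes of a line share their libraries. The fall was larger in TPC1 for 52 genes. In TPC1 nutlin lowered 36 genes by over 4-fold, 18 by over 8-fold and 6 by over 16-fold, where K1 had 15, 2 and 0. To test the difference between the lines, the 16 libraries were fitted as one set, with 16738 genes. For 41 members the change was higher in K1, that is the fall was smaller, against 8.73% of all genes called in that direction and 10.5% in the other. No member was called in the other direction by edgeR, where 1 had an unadjusted p under 0.05 and the DESeq2 count was 0. The median difference was 0.89 on the log2 scale. The largest differences were 3.07 ± 0.28 for FAM111B (adjusted p = 4.28e-07), 2.93 ± 0.14 for RRM2 (adjusted p = 6.10e-10), 2.66 ± 0.17 for MCM10 (adjusted p = 1.18e-08), 2.56 ± 0.16 for CDC6 (adjusted p = 5.83e-09) and 2.49 ± 0.19 for CLSPN (adjusted p = 5.80e-08). The 15 members not called were CDC7, CDT1, GINS4, LIG1, MCM5, POLA1, POLA2, POLD1, POLE, PRIM2, RPA1, RPA3, RRM1, TIMELESS and TYMS. CDKN1A and PPM1D, both p53 targets, rose further in TPC1 as well, PPM1D by 1.90 against 1.32 in K1, and the part this plays was not tested.

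**Figure D3:**
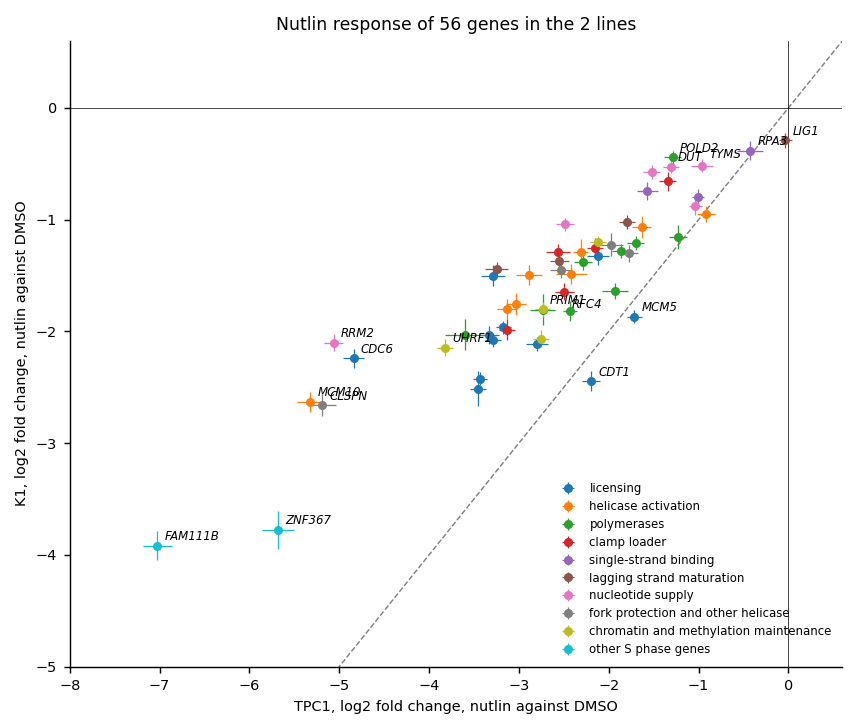
Log2 change under nutlin in TPC1 (horizontal) against K1 (vertical) for the 56 genes, coloured by role, with bars for the SE and a line where both lines would be equal. Most points lie above the line of equality, FAM111B at -7.03 and -3.92 is farthest from 0, and LIG1 and RPA3 are nearest to it.

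Genes with and without the E2F letters overlapped in the size of their changes. The 21 genes with the letters had a median nutlin change of -2.89 in TPC1 and -1.97 in K1, and the 27 without had -2.15 and -1.29. Each set spanned small and large changes, since LIG1 at -0.04 holds the letters and MCM10 at -5.32 does not. These values are a description with no test.

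GSK2830371 was then compared with DMSO to see what inhibition of PPM1D alone does to these genes, and the changes were small. In TPC1 no member was called lower and none higher by edgeR, where 0.681% and 0.72% of all genes were. Of the 56, 33 had an unadjusted p under 0.05 on the lower side and 0 on the higher, and DESeq2 called 0. Of all 15273 genes 1603 had such a p on the lower side and 1554 on the higher. The adjusted p was under 0.05 for 6 members, all lower. Nevertheless 55 of 56 values were below 0, with a median of -0.26, and the 2 drug libraries summed to 5239 and 5351 CPM against 6262 and 6317 CPM in DMSO. In K1 only FAM111B was called lower, at -0.59 ± 0.10 (adjusted p = 0.00125), where 1.49% of all genes were called lower and 0.736% higher. No K1 member was called higher by edgeR or by DESeq2, and 1 had an unadjusted p under 0.05 in that direction. On the lower side 28 members had one, where of all 15900 genes 2526 were lower and 2454 higher at that level. The adjusted p was under 0.05 for 18 members, all lower, most of them under 1.5-fold. The K1 median was -0.16 with 50 values below 0. K1 had 0 calls without its first GSK2830371 library, 7 without the second, and 2 without the second DMSO library, and TPC1 had 1 without its first DMSO library. The K1 call of FAM111B was lost under 6 of 18 alternatives, where its value lay between -0.58 and -0.31.

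In K1 the size of the GSK2830371 change moved with the base composition of the transcript. Over the 56 genes the GC percentage of the transcript and the log2 change had a Spearman correlation of 0.683, and over 11510 genes of at least 1 CPM it was 0.590. In TPC1 the correlations were -0.229 over the members and -0.0752 over 11183 genes. These describe genes of the same libraries and carry no test. With GC and length effects removed, an alternative chosen after seeing the data, K1 had no member called lower and TPC1 had 1. DBF4, MCM8, DNA2, POLA1 and CDC7, with K1 values of -0.54, -0.55, -0.54, -0.52 and -0.51, stood lowest after FAM111B, and were at -0.17, -0.06, -0.06, -0.15 and -0.10 in TPC1.

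**Figure D4:**
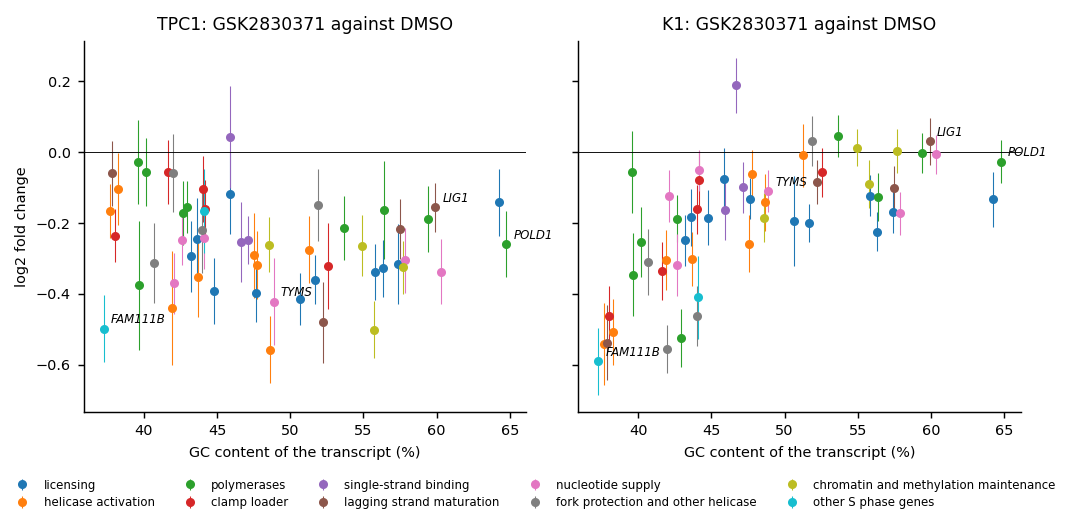
GC percentage of the transcript (horizontal) against the log2 change under GSK2830371 alone (vertical) for the 56 genes in each line, with bars for the SE. The K1 points climb from about -0.5 at low GC to about 0 at high GC (Spearman 0.683), and the TPC1 points do not (-0.229).

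With both drugs together 54 of 56 genes were called lower than in DMSO in TPC1 and 52 in K1. Of all genes 21.7% and 8.09% were called lower and 22.5% and 7.62% called higher. No member was called higher, with no unadjusted p under 0.05 in that direction in either line and a DESeq2 count of 0. The medians were -2.47 and -1.70, and for all 56 genes in both lines the combination libraries lay below the DMSO libraries. The share of all genes so placed is not given here. LIG1 and RPA3 were not called in TPC1, and LIG1, POLD2, RFC1 and RPA3 were not called in K1. RFC1 was the one gene called lower under nutlin and not under the combination in K1, at -0.53 ± 0.08 (adjusted p = 1.52e-04). DTYMK, DUT and TYMS passed in K1 with both drugs, at -0.91, -0.67 and -0.60. The TYMS call and that of RPA2 (-0.60) each lost the 1.5-fold threshold under 3 alternatives.

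To ask what GSK2830371 adds on top of nutlin, the combination was compared with nutlin alone. Few members differed. In TPC1, 5 were called lower, against 5.66% of all genes lower and 6.46% higher, so the share of members was near the background. In K1, 4 were called lower, against 1.52% of all genes lower and 1.16% higher. No member was called higher by edgeR or by DESeq2 in either line, while 5 in TPC1 and 2 in K1 had an unadjusted p under 0.05 in that direction. On the lower side 22 in TPC1 and 28 in K1 had one, where 2821 of 15273 and 2104 of 15900 genes did. The adjusted p was under 0.05 for 12 members lower and 2 higher in TPC1, and for 15 lower and 0 higher in K1. The medians were -0.16 and -0.18. RRM2 was the one gene called lower in both lines. It fell by a further 1.74-fold in TPC1 (-0.80 ± 0.10, adjusted p = 6.85e-04) and by 1.5-fold in K1 (-0.59 ± 0.08, adjusted p = 5.34e-04). Its K1 value was -0.54 without the first combination library, -0.45 without the second nutlin library, -0.54 with library size only and -0.53 in the moderated DESeq2 fit, all under the 1.5-fold threshold, whereas the TPC1 call held under all 18 alternatives.

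In TPC1 the other 4 were ORC1 at -0.85 ± 0.10 (adjusted p = 5.48e-04), GINS1 at -0.87 ± 0.18 (adjusted p = 0.00867), FEN1 at -0.61 ± 0.13 (adjusted p = 0.00803) and MCM3 at -0.59 ± 0.07 (adjusted p = 8.02e-04). For GINS1, the TPC1 values were 68 and 64.6 CPM in DMSO, 13.2 and 11.3 CPM in nutlin, 50.2 and 51 CPM in GSK2830371 and 8.32 and 5.11 CPM in the combination. GINS1 in K1 came to 60.8 and 57.6 CPM in DMSO, 19.4 and 22.5 CPM in nutlin, 44.6 and 50.9 CPM in GSK2830371 and 14.9 and 16.7 CPM in the combination. GINS1, a subunit of the active helicase, had combination libraries that differed from each other by more than its nutlin libraries did. Its value was -0.75 without the first nutlin library and -0.54 without the second combination library, and neither was a call. FEN1 behaved alike, with -0.51 and -0.42 in the same fits, and was under 1.5-fold in the moderated DESeq2 fit (-0.56) and with the GC and length correction (-0.58) too. The TPC1 count was 3 without either of these libraries and 8 without the first combination library. MCM3 lay at the 1.5-fold threshold and lost its call under 10 of 18 alternatives while its value stayed between -0.62 and -0.54. FAM111B gave -1.01 ± 0.36 in TPC1 (adjusted p = 0.0905), a larger difference that was not called, on 6 and 7 counts in the combination libraries.

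In K1 the other 3 were FAM111B at -0.87 ± 0.21 (adjusted p = 0.0188), UHRF1 at -0.67 ± 0.08 (adjusted p = 1.74e-04) and CDT1 at -0.59 ± 0.11 (adjusted p = 0.00388). The same genes in TPC1 gave -0.42 for UHRF1 and -0.04 for CDT1. CDT1 was at -0.55 without the first combination library, at -0.49 without the second nutlin library, at -0.55 with library size only and at -0.42 in the moderated DESeq2 fit, none of them a call. The K1 count was 1 without either of these libraries, with UHRF1 called under all 18 alternatives. The FAM111B call was lost when any one of the 4 K1 libraries compared was left out and in the moderated DESeq2 fit. A few members moved the other way without a call. RFC4 gave 0.51 ± 0.11 in TPC1 and 0.18 ± 0.08 in K1, RFC1 0.45 ± 0.09 and 0.13 ± 0.08, and PRIM1 0.38 ± 0.15 and 0.39 ± 0.16. In both lines PRIM1 stood among the 3 highest, and its combination libraries were above its nutlin libraries. Of the 56 members, 9 in TPC1 and 5 in K1 were so placed, and 36 and 34 lay wholly below. The share of all genes so placed is not given here.

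**Figure D5:**
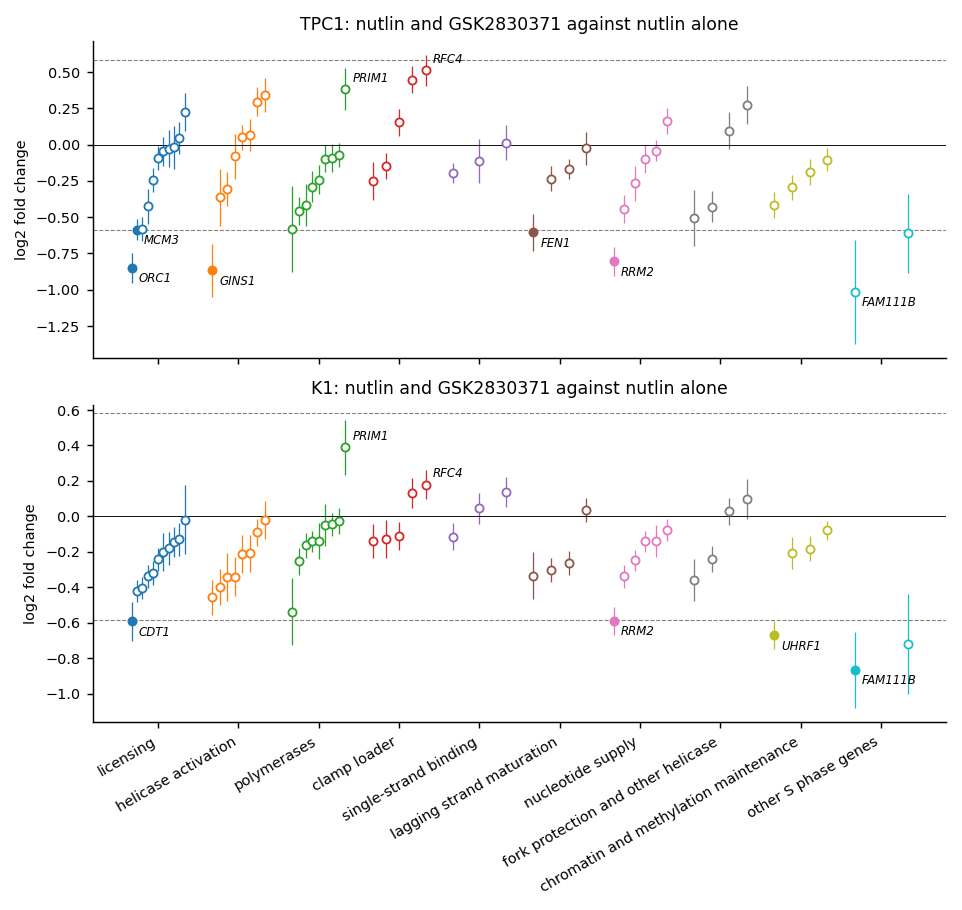
Log2 difference of the combination against nutlin for the 56 genes by role, TPC1 above and K1 below, with bars for the SE, filled points for called genes and dashed lines at 1.5-fold. The filled points (5 in TPC1, 4 in K1) all lie below 0, and the clamp loader genes of TPC1 reach up to 0.51.

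Between the lines the combination effect differed for 1 member, ORC1, whose change was higher in K1 by 0.84 ± 0.24 (adjusted p = 0.0426), where 2.56% of genes were called in each direction. In TPC1 ORC1 went from 4.42 and 4.07 CPM to 2.39 and 2.24 CPM and in K1 from 3.36 and 4.97 CPM to 3.86 and 4.68 CPM, with K1 overlapping. The call was lost under 12 of 22 alternatives, most of them leaving out 1 library. No member was called in the other direction by edgeR, where 7 had an unadjusted p under 0.05 and the DESeq2 count was 0. Over the members the combination effects of the lines had a Spearman correlation of 0.495.

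The interaction, which compares the effect of GSK2830371 with nutlin to its effect without, was called higher for 4 members in TPC1, against 2.82% of all genes higher and 3.5% lower. They were CDC6 at 0.62 ± 0.16 (adjusted p = 0.0459), CDC45 at 0.62 ± 0.15 (adjusted p = 0.0376), GINS4 at 0.61 ± 0.14 (adjusted p = 0.0283) and RFC4 at 0.62 ± 0.14 (adjusted p = 0.0315). For each, GSK2830371 alone gave a value below 0 and the combination a value above nutlin, and neither part was a call by itself. The number of such calls was 0 without either nutlin library, either GSK2830371 library or the second DMSO library, and 1 without the second combination library. None was called lower in TPC1 by edgeR, where 2 had an unadjusted p under 0.05. In K1 no member was called, with 8 unadjusted p under 0.05 on the lower side and 7 on the higher and a DESeq2 count of 0, where 0.654% of genes were called lower and 1.79% higher.

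The levels per kilobase (RPKM, on the length of 1 reference transcript per gene) show how unequal these RNAs are before treatment. In TPC1 DMSO MCM4 stood highest at 176 ± 7.61 RPKM (SD, n = 2), with TYMS at 169 ± 20.1 RPKM, within the spread of MCM4, and then POLD2 at 128 ± 14.2 RPKM and RRM2 at 126 ± 5.04 RPKM, which did not differ beyond their spread. MCM8 stood lowest at 5.32 ± 0.523 RPKM. In K1 DMSO the order began with FEN1 at 86.5 ± 0.998 RPKM, RNASEH2A at 84.8 ± 4.83 RPKM and DTYMK at 84.5 ± 1.97 RPKM, which did not differ beyond their spread, and ended with DNA2. Members with high levels did not fall more than those with low ones, since DMSO CPM and the nutlin change had Spearman correlations of 0.0373 (TPC1) and 0.0364 (K1).

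A further 52 genes of replication (30) and nucleotide metabolism (22) that are no members were counted for comparison, and all were tested in both lines. Under nutlin 31 were called lower and 2 higher in TPC1, and 22 lower and 1 higher in K1, where the members had 54 and 50 of 56 lower and 0 higher. Of all genes tested 18.0% were called lower and 17.5% higher in TPC1, and 5.43% and 3.84% in K1. TICRR, an origin firing factor, fell by 4.97 in TPC1 and by 1.36 in K1, and the histone chaperone ASF1B by 3.69 and 1.98. PAICS, a purine synthesis gene, changed by -1.58 in TPC1 and -0.82 in K1. The genes called higher were RRM2B in both lines and POLD4, the smallest subunit of polymerase delta, in TPC1 at 1.09 ± 0.14. POLD4 gave 0.30 ± 0.07 in K1, not a call. For PCNA, the TPC1 values were 175 and 198 CPM in DMSO, 258 and 277 CPM in nutlin, 151 and 168 CPM in GSK2830371 and 307 and 369.9 CPM in the combination. PCNA in K1 came to 170.2 and 179.7 CPM in DMSO, 153 and 166 CPM in nutlin, 184 and 188 CPM in GSK2830371 and 215 and 223 CPM in the combination. PCNA, the sliding clamp and itself a p53 target, thus did not follow the clamp loader: its nutlin change was 0.56 ± 0.12 in TPC1, under 1.5-fold but called at 0.61 to 0.72 under 4 of 18 alternatives, and -0.12 ± 0.06 in K1, and with both drugs it rose by 0.92 ± 0.12 in TPC1, a call, and gave 0.29 ± 0.06 in K1, not a call. For the combination against nutlin, 2 of the 52 were called lower and 1 higher in TPC1, and 2 lower and 0 higher in K1. Of all genes 5.66% were called lower and 6.46% higher in TPC1, and 1.52% and 1.16% in K1. In TPC1 these counts do not exceed the background. The genes called were TOP2A, lower in both lines (-0.75 and -0.93), ASF1B, lower in TPC1 (-0.88), TICRR, lower in K1 (-0.72), and RRM2B, higher in TPC1 (0.69).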

How the data were processed

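Polyadenylated RNA of 16 libraries (TPC1 and K1, 4 treatments, 2 libraries each) was sequenced by the authors as single 150-base reads, aligned to GRCh37 with TopHat2 2.0.13, filtered for mapping quality with SAMtools and counted per gene by HTSeq 0.6.1 with the strand used (versions from the submitters' processing notes). The deposited values are raw read counts per gene symbol, with no normalization. In TPC1 the columns numbered 3 could be matched to a treatment but not to a sample, since the labels number 1 and 2. All columns were used, so 0 were set aside.

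The filter kept genes that exceeded 0.1 CPM in 2 or more of a line's libraries. Counts were scaled by TMM and fitted with edgeR 4.0.16 (limma 3.58.1, R 4.3.3), with the 4 treatments of a line together, a quasi-likelihood test, and calls that need both an adjusted p under 0.05 and a change of over 1.5-fold. The SE is the log2 value divided by the square root of the F statistic. Common dispersions were 0.00828 (TPC1) and 0.00273 (K1), with 4 residual degrees of freedom in each. CPM is the count scaled to a fixed library total, and RPKM divides it by the length of the GENCODE reference transcript. In TPC1 DMSO each member had at least 547 counts per library. Errors rest on 2 libraries a group.

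Alternatives were DESeq2 1.42.0 size factors and Wald tests, library size alone, other filters, fits of the compared groups, the replicate number as a block, and each library left out. A correction for GC content and length (values for 87.8% of tested genes in TPC1 and 87.5% in K1, with 78.3% of all symbols matched) was chosen after seeing the data. The steps were tested on simulated data. Python 3.11.15 made the tables and plots.

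The members, the lists and the tests were chosen with earlier results of these data known. Values in every library are given for the lowest and highest member of each role under nutlin, for the 3 lowest and 3 highest of the combination against nutlin, and for members called higher. The last clause also takes in the 41 members called between the lines, of which only those named by another clause have all their values printed, and CDT1 was added after its values were seen. Promoter letters come from RefSeq. Values of a few genes in the marker and comparison lists are not reported here.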

Additional observations from a re-analysis of the deposited data

Results flagged for a closer look

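The first group of results stands out because the effect of nutlin differed between the lines in a test of the difference itself. The fall was smaller in K1 for 41 members, where 8.73% of all genes were called in that direction. The 5 largest differences were 3.07 on the log2 scale for FAM111B, 2.93 for RRM2, 2.66 for MCM10, 2.56 for CDC6 and 2.49 for CLSPN.

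The added effect of GSK2830371 on top of nutlin was called different between the lines for 1 member, ORC1, by 0.84 on the log2 scale. Of all genes 2.56% were called in each direction, so this count does not exceed the background. The ORC1 call was lost in most fits with 1 library left out.

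In TPC1 the effect of GSK2830371 differed between cells with and without nutlin for 4 members, CDC45 (0.62), CDC6 (0.62), GINS4 (0.61) and RFC4 (0.62). Of all genes 2.82% were called in that direction, and these calls were lost in most fits with a library left out. No group has the 4 samples that a search for single outlying libraries needs.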

How the results depend on the processing

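Under the 18 alternatives in each line the members called lower numbered 54 to 55 under nutlin and 53 to 55 with both drugs in TPC1, and 49 to 51 and 50 to 53 in K1, and 39 to 44 were called between the lines under nutlin. Of 5700 single gene values under alternatives, 5584 kept their direction and side of the threshold, 106 lost a call, 7 gained one and 3 changed sign. The counts that changed were the small ones. With library size only, the TPC1 interaction had 0 members higher and K1 had 2 lower for the combination against nutlin. DESeq2 fits of the compared groups with moderated values gave 3 lower in TPC1 and 1 in K1 for the combination against nutlin, and 0 in K1 for GSK2830371. With the GC and length correction, TPC1 had 1 lower for GSK2830371 and 3 for the combination against nutlin, and K1 had 0 lower for GSK2830371 and 1 for the interaction. With filterByExpr the line difference of the combination against nutlin had 0 higher.

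Leaving out 1 library in turn gave, for the members lower under GSK2830371, 0 to 7 in K1 (7 without GSK2830371 library 2) and 0 to 1 in TPC1 (1 without DMSO library 1). For the combination against nutlin it gave 1 to 4 lower in K1 (1 without combination library 1 or nutlin library 2) and 3 to 8 in TPC1 (8 without combination library 1). For the interaction it gave 0 to 3 higher and 0 to 1 lower in TPC1 and 0 to 1 lower in K1, and for the line difference of the combination 0 to 2 higher and 0 to 1 lower. In K1 the combination against nutlin changed ORC1 by -0.02 and by 0.026 with library size only, and by -0.27 to 0.32 with 1 library left out (0.096 without combination library 1, 0.32 without nutlin library 2). ORC1 was not called in any of these. The cause of these changes was not tested, except that a fit with fewer libraries rests on fewer values.

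Deviations of same-numbered libraries correlated by 0.496 to 0.696 over 12303 genes in TPC1 and by -0.357 to 0.376 over 12546 genes in K1, as a hint from the data, since 2 numbers do not show a pairing. With the replicate block the members lower under nutlin were 54 in TPC1 and 50 in K1, and K1 under GSK2830371 had 0 in place of 1. With the replicate block and the GC and length correction together, TPC1 had 1 and K1 had 0 lower under GSK2830371, and the K1 interaction had 1 lower. No other count moved by over 1.5 times under the block.

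Depth limits FAM111B and ZNF367 in nutlin-treated TPC1, where counts were 6 to 54.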
